A study of Mus musculus with 4 samples.

Results

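Lum, Dcn, Fn1, Tnfrsf11b, Ly6a, Klf4 and Tcf21 are 7 genes that are read as signs of smooth muscle cells leaving the contractile state, and their levels were followed across single cells of the mouse aorta. They were chosen by symbol, 7 of the 32285 genes counted, and all 7 were detected. Barcodes with at least 2000 unique molecular identifiers (UMIs, each standing for 1 captured RNA molecule) and at most 10% mitochondrial UMIs were kept. Those with at most 2 UMIs of C1qa, C1qb and C1qc together (macrophage genes) and at most 1 UMI of Pecam1 and Cdh5 together (endothelial genes) were taken as wall barcodes. Wall barcodes with 3 or more UMIs of Pdgfra and Serpinf1 were called fibroblasts, and the others were divided by the share of their UMIs that came from the contractile genes Acta2, Tagln, Myh11 and Myl9. The divisions, called bins here, were under 1%, 1 to 3%, 3 to 6% and over 6%. UMIs were summed per library and bin and are given as CPM, the gene's UMIs divided by all UMIs of the sum and scaled to the fixed total usual for this unit.

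The study measured single-cell RNA in digested mouse aorta with a 10x Genomics 3′ kit, in 4 libraries with 1 library per group. On normal diet the groups were WT and LysM-DKO mice, and on western diet they were WT/ApoE-/- and LysM-DKO/ApoE-/- mice. Values of all 4 libraries are given in this order. LysM-DKO is taken here to mean loss of the epsin genes Epn1 and Epn2 in cells that express Cre from the lysozyme M gene, mainly macrophages and other myeloid cells, so the smooth muscle cells were not the cells targeted. The labels give neither age nor time on diet, nor how many animals made a library. ApoE-/- mice lack apolipoprotein E and form atherosclerotic lesions on western diet. Diet, ApoE genotype, sex of the cells and the version of the counting software changed together between the normal and the western diet libraries, and their parts cannot be told apart. A group has no replicate, so groups could not be tested against each other, and every interval covers counting error only.

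Contractile smooth muscle cells of the arterial wall can lower their contractile genes and take up matrix-producing programs, a change called phenotypic modulation, and modulated cells contribute to the plaque and its fibrous cap. Lumican (Lum) and decorin (Dcn) are small leucine-rich proteoglycans that bind collagen fibrils, and fibronectin (Fn1) is an adhesive matrix glycoprotein. Tnfrsf11b encodes osteoprotegerin, a secreted decoy receptor, Ly6a encodes the surface antigen Sca-1, and Klf4 and Tcf21 are transcription factors tied to the modulated state. Adventitial fibroblasts normally express Lum, Dcn, Ly6a and Tcf21, and macrophages and endothelial cells can express Fn1 or Klf4, so none of the 7 marks a modulated smooth muscle cell by itself.

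On GRCm38, Lum lies at chr10:97565128-97572703 and Dcn at chr10:97479609-97518143, both on the plus strand, with 46984 bases and 0 annotated genes between them. Fn1 lies at chr1:71585520-71653200, Tnfrsf11b at chr15:54250619-54278484, Ly6a at chr15:74994877-74998031, Klf4 at chr4:55527143-55532466 and Tcf21 at chr10:22817281-22820174, all on the minus strand. All 7 are protein-coding genes. Fn1 overlaps Apol7d and Tcf21 overlaps Gm10824 on the opposite strand. Ly6a belongs to a multigene family, so reads shared with close copies make its counts uncertain.

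The promoters of both transcription factors are shown beside that of Myl9, a contractile gene used for the bins, because Klf4 and the contractile genes are set against each other below. Each is the 250 bases upstream of the gene's start in RefSeq, GRCm38.p6, read 5′ to 3′ on the gene's strand. Of the 7 genes, 2 had an entry. Capitals mark CAGCTG, an E-box of the kind that basic helix-loop-helix factors such as TCF21 bind, in Klf4, and the CArG box, the element that serum response factor binds in contractile genes, in Myl9. The Tcf21 sequence holds neither and has no capitals.
Klf4: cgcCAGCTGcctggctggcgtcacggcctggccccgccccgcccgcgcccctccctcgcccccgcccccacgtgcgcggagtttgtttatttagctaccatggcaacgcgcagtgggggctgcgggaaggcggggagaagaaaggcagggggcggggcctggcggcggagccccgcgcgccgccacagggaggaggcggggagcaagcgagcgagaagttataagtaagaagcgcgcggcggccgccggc
Tcf21: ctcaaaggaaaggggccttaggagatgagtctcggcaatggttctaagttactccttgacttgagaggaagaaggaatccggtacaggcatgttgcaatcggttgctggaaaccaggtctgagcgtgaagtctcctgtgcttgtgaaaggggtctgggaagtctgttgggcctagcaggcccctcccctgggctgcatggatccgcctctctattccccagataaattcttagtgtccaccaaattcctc
Myl9: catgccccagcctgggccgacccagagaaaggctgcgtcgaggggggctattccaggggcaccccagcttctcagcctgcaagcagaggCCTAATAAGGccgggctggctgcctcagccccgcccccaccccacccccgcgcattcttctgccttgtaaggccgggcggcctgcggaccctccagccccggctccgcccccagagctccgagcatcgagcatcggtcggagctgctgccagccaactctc
Searched on both strands of these 250 bases, CAGCTG was found 1 time in Klf4 and 0 times in Tcf21 and Myl9, and it was present in 13.0% of 32851 promoters. The CArG box was counted only in the exact form CCWWWWWWGG, where W is A or T, and forms 1 base off were not counted for any gene. In this form it was found 1 time in Myl9 and 0 times in Klf4 and Tcf21, and in 1.47% of all promoters. Acta2, another of the contractile genes with an entry, held the exact form 0 times and CAGCTG 1 time. Its 250 bases do hold CCCTATATGG and CCTTGTTTGG, each 1 base off the exact form, so the count of 0 does not mean that Acta2 lacks such an element. These matches describe the letters only.

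The libraries held 13831, 15826, 29724 and 11414 barcodes, of which 6294, 6087, 7149 and 7748 were kept, with median depths of 5212, 4503, 5327 and 6887 UMIs. Any pair of libraries shared between 38 and 129 barcode sequences, at most 0.824% of a library. Epn1 gave 76.2, 55.7, 51.5 and 42.3 CPM and Epn2 40.1, 34.8, 41.8 and 13.1 CPM in macrophage barcodes, on 9 to 201 UMIs, but the deleted part of these genes is not given in the labels and 3′ counts may lie outside it. Apoe was at 6479 and 5030 CPM in macrophage barcodes of the normal diet libraries and at 7.94 and 8.76 CPM in those of the ApoE-/- libraries. Xist gave 937, 946, 0.655 and 0.550 CPM, which sets the sex of the cells apart between the diets. Wall barcodes numbered 5505, 5068, 6085 and 7226. The 1 to 3% bin held 13.4%, 11.8%, 21.1% and 11.4% of them, on 737, 599, 1281 and 824 barcodes, and the over 6% bin held 68, 50, 375 and 258 barcodes. The median depth of the 1 to 3% bin was 6433, 5745, 3780 and 6617 UMIs.

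The main pattern was shared by 5 of the 7 genes. Lum, Dcn, Fn1, Tnfrsf11b and Ly6a stood higher in the WT/ApoE-/- western diet library than in the other 3 libraries in the 1 to 3% bin, beyond the intervals. In that library the level of each of them was lower in each bin of higher contractile share, from under 1% to over 6%. Klf4 also went down from the 1 to 3% bin upwards, in all 4 libraries. In the 1 to 3% bin, however, Klf4 was lowest in the WT/ApoE-/- library, and both normal diet libraries lay above both western diet libraries. Tcf21 had few UMIs in the 3 bins from 1% upwards.

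**Figure D1:**
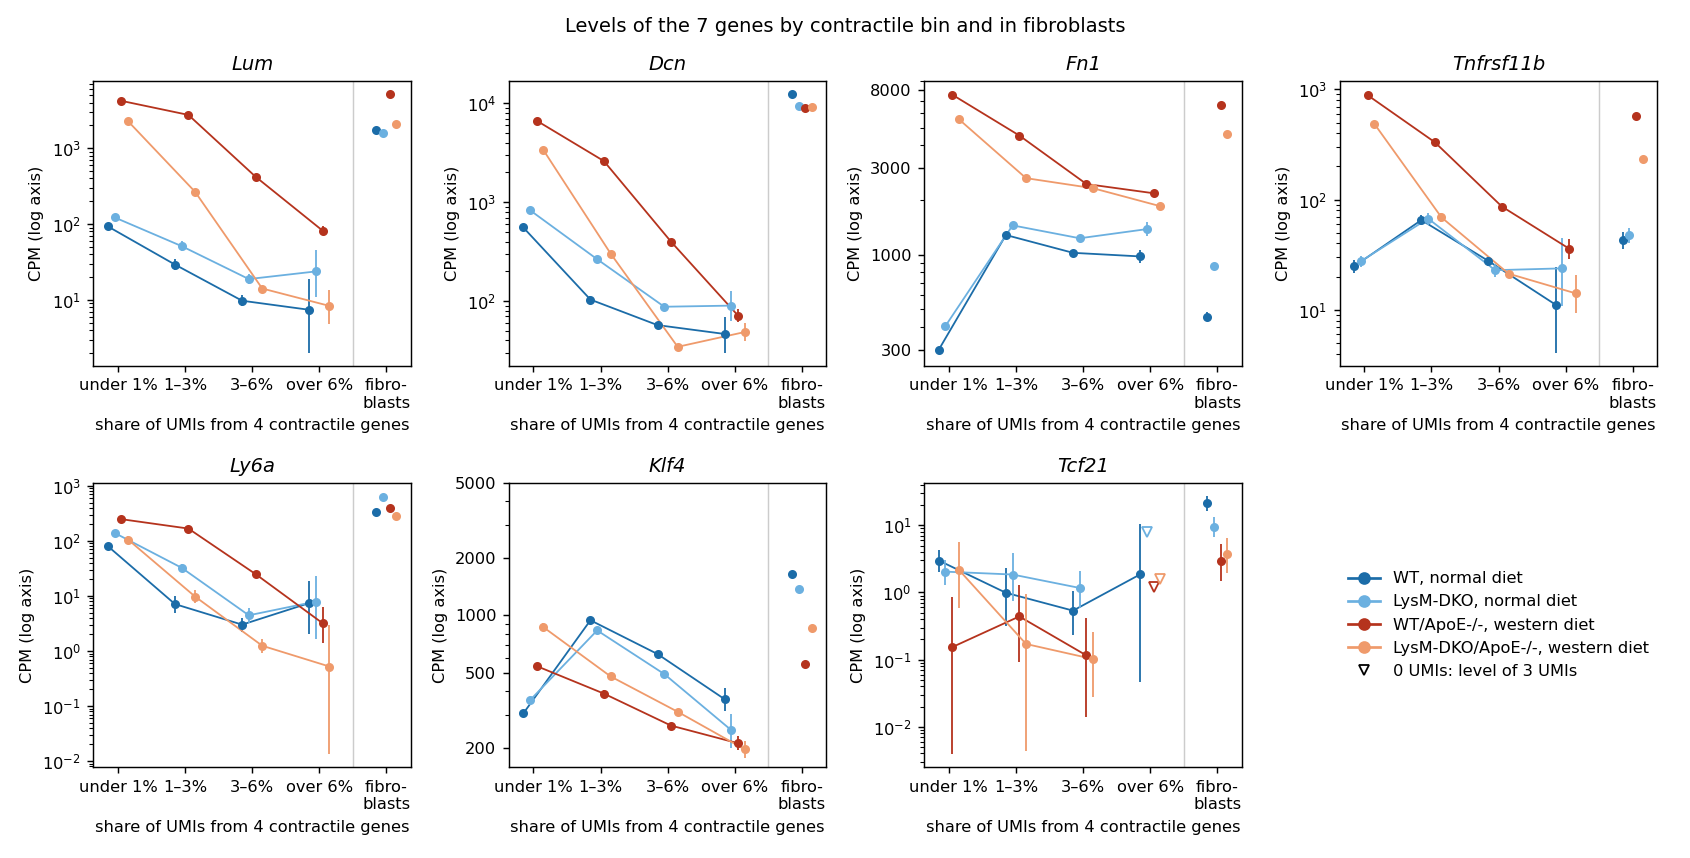
Level of each gene in CPM (log axis) by bin of contractile share and in fibroblasts, 1 line per library. Points are CPM of summed UMIs and bars are exact Poisson 95% intervals. Open triangles mark sums with 0 UMIs, drawn at the level that 3 UMIs would give. The WT/ApoE-/- western diet library lies above the other 3 in the 1 to 3% bin for 5 genes and below them for Klf4.

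Lum stood at 29.3, 51.2, 2745 and 266 CPM in the 1 to 3% bin, on 148, 194, 18749 and 1557 UMIs. The 4 intervals did not overlap, and from low to high the order was WT, LysM-DKO, LysM-DKO/ApoE-/- and WT/ApoE-/-. In the 3 to 6% bin it stood at 9.78, 18.9, 422 and 14.2 CPM, and in the over 6% bin at 7.43, 23.8, 81.9 and 8.36 CPM. The LysM-DKO/ApoE-/- library thus resembled the normal diet libraries in both upper bins and lay between the diets in the 1 to 3% bin. Just below and just above the 1% edge, the WT/ApoE-/- library gave 4598 and 4026 CPM of Lum. At the 3% edge it gave 1306 and 1136 CPM, and at the 6% edge 67.2 and 49.4 CPM, so the difference across each edge was smaller than that between the bins on either side. In the LysM-DKO/ApoE-/- library it gave 189 and 68.7 CPM at the 3% edge, on 232 and 133 UMIs. At the 1% edge that library gave 727 and 1283 CPM, on 13 and 9 barcodes.

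Dcn, the neighbour of Lum on chromosome 10, stood at 103, 265, 2611 and 303 CPM in the 1 to 3% bin. Its intervals there did not overlap, and the WT/ApoE-/- library was again far above the rest. In the over 6% bin Dcn stood at 46.4, 89.9, 71.1 and 48.6 CPM, where the intervals of the 4 libraries overlapped with at least 1 other library each and the WT/ApoE-/- library no longer stood apart. In the 3 to 6% bin the levels were 57.1, 87.6, 399 and 34.4 CPM.

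Fn1 was present in every bin of every library. It stood at 1283, 1450, 4523 and 2636 CPM in the 1 to 3% bin and at 979, 1383, 2178 and 1848 CPM in the over 6% bin. Both western diet libraries lay above both normal diet libraries in each of these bins, and their intervals did not overlap with those of the normal diet libraries. The western diet libraries lay close to each other in the 3 to 6% bin, at 2447 and 2320 CPM.

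Tnfrsf11b, the osteoprotegerin gene, stood at 65.3, 67.4, 332 and 69.0 CPM in the 1 to 3% bin. The other 3 libraries could not be told apart by their intervals, which ran from 58.4 to 76.1 CPM, and only the WT/ApoE-/- library stood above them. In the over 6% bin it stood at 11.1, 23.8, 36.0 and 14.1 CPM, on 6, 9, 90 and 27 UMIs. Its ligand genes Tnfsf11 and Tnfsf10 gave few UMIs. Counted with Tnfrsf11a, between 1 and 2 of these 3 genes reached 20 UMIs in a comparison of the 1 to 3% bin. Tnfsf11, which encodes the ligand RANKL, had 0, 11, 22 and 7 UMIs in the 1 to 3% bin, and Tnfsf10, which encodes TRAIL, had 5, 4, 4 and 1 UMIs. Tnfrsf11a, the signalling receptor for RANKL, stood at 16.6, 14.3, 8.78 and 13.8 CPM there, on 84, 54, 60 and 81 UMIs. In the 3 to 6% bin it was higher, at 27.4, 26.9, 30.0 and 30.0 CPM.

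Ly6a stood at 7.12, 32.5, 168 and 9.74 CPM in the 1 to 3% bin, on 36, 123, 1147 and 57 UMIs. The intervals of the WT normal diet and LysM-DKO/ApoE-/- libraries overlapped at the low end, and those of the other 2 libraries did not. In the over 6% bin it had 4, 3, 8 and 1 UMIs, too few to order the libraries.

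Klf4 stood at 943, 834, 388 and 478 CPM in the 1 to 3% bin, at 626, 491, 263 and 311 CPM in the 3 to 6% bin and at 362, 249, 212 and 197 CPM in the over 6% bin. In the 1 to 3% bin the 4 intervals did not overlap, with the WT normal diet library highest and the WT/ApoE-/- library lowest. The summed level of 16 genes induced by tissue dissociation, among them Fos, Jun and Egr1, had the same order there, at 26374, 18641, 11525 and 14962 CPM, with 16 of 16 genes detected in every library. Its part in the Klf4 levels was not tested.

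Tcf21 had 5, 7, 3 and 1 UMIs in the 1 to 3% bin and 1, 0, 0 and 0 UMIs in the over 6% bin. No ordering of the libraries could be read at this depth. A sum with 0 UMIs allows a level of up to 7.93, 1.20 and 1.57 CPM in the LysM-DKO, WT/ApoE-/- and LysM-DKO/ApoE-/- libraries, which is the level of 3 UMIs.

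The next comparison asks, within each library, how the genes differ between barcodes of low and of high contractile share. A gene was counted as higher or lower when both sums held at least 20 UMIs together, the difference was at least 2-fold and the 95% interval of the log2 ratio, exact given the total, lay apart from 0. The 1 to 3% bin was set against the over 6% bin. Of 6 genes with enough UMIs, 4 were past this threshold in the WT normal diet library, where 8.71% of all genes tested were. In the other 3 libraries 5 of 6 were past it, against 10.2%, 14% and 7.72% of all genes. All were higher in the 1 to 3% bin, and the 7th gene, Tcf21, had too few UMIs in all 4 libraries. The median log2 ratio of the tested genes was 1.25, 1.48, 4.13 and 2.45, beside 0.17, 0.10, 0.11 and 0.15 over all genes tested.

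**Figure D2:**
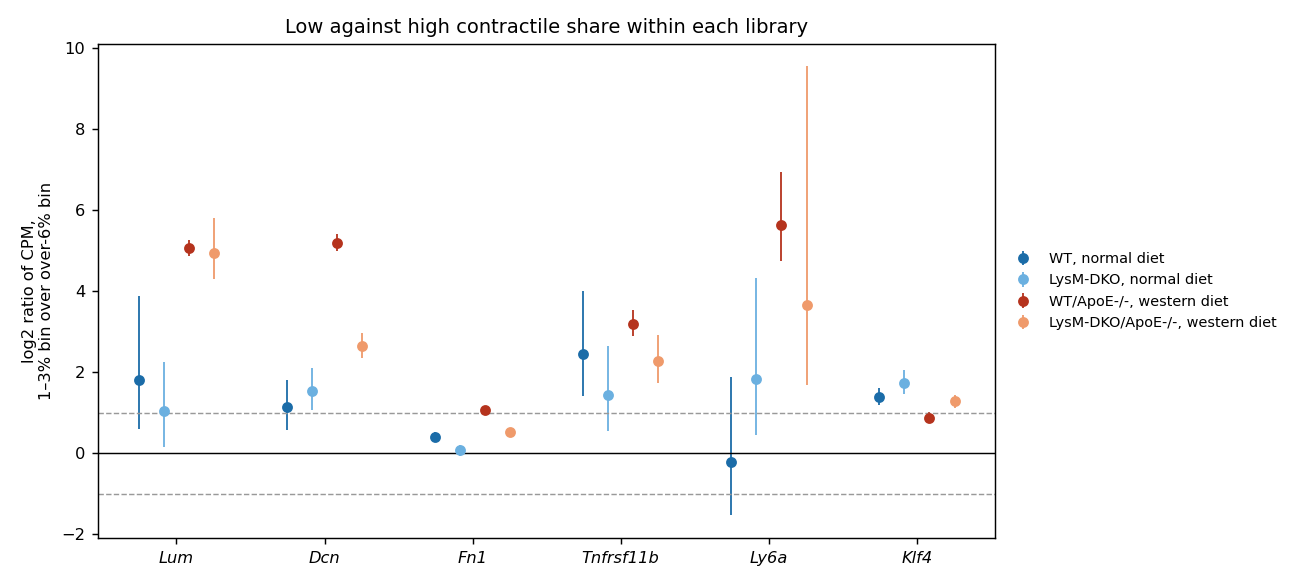
Log2 ratio of the level in the 1 to 3% bin over that in the over 6% bin within each library, for the 6 genes with at least 20 UMIs. Bars are exact 95% counting intervals, the solid line is no difference and dashed lines are 2-fold. Lum, at 5.06 and 4.95, and Dcn and Ly6a, at 5.19 and 5.63 in the WT/ApoE-/- library, lie furthest from the line.

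Lum had log2 ratios of 1.81 (0.59 to 3.87), 1.03 (0.15 to 2.26), 5.06 (4.87 to 5.27) and 4.95 (4.29 to 5.80) between these bins. The interval of each western diet library lay above those of both normal diet libraries, and the western diet libraries overlapped each other. For Dcn the ratios were 1.13, 1.54, 5.19 and 2.63, and the WT/ApoE-/- interval of 4.98 to 5.42 lay above those of the other 3 libraries. Tnfrsf11b gave 2.44, 1.43, 3.20 and 2.27, with overlapping intervals except between the LysM-DKO normal diet and the WT/ApoE-/- library. Ly6a gave 1.82 (0.45 to 4.33), 5.63 (4.73 to 6.93) and 3.65 (1.68 to 9.55) in the last 3 libraries. In the first it gave -0.21 (-1.54 to 1.89) and did not pass the threshold. Fn1 passed it only in the WT/ApoE-/- library, at 1.05 (1.01 to 1.10), against 0.39, 0.07 and 0.51 in the others. Klf4 was past it in 3 libraries, at 1.38, 1.74 and 1.28, and stayed just under it in the WT/ApoE-/- library at 0.87 (0.73 to 1.01).

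Several of these calls depended on the processing. The Fn1 call in the WT/ApoE-/- library ended under 5 alternatives, at 0.89 to 0.99, and the Lum call in the LysM-DKO normal diet library under 4, at 0.90 to 0.99. With both upper bins joined as the reference, which was chosen after seeing the data, Klf4 was under the threshold in the 3 libraries where it had passed, at 0.61, 0.79 and 0.64. In the WT normal diet library the Dcn call ended in this setting, at 0.87, and without the 5% of barcodes with most UMIs, at 0.81. In the LysM-DKO normal diet library the Ly6a call ended without those barcodes, at 1.19 (-0.20 to 3.72), and the Tnfrsf11b call without chondrocyte-marked barcodes, at 0.96. In the WT/ApoE-/- library the joined reference brought Lum, Dcn and Ly6a to 2.86, 2.87 and 2.91, still past the threshold.

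Barcodes marked as chondrocytes, with 3 or more UMIs of the cartilage genes Acan, Col2a1, Chad, Comp and Cnmd, made up 4.75%, 5.68%, 19.0% and 7.28% of the 1 to 3% bin. The summed level of these genes there was 56.0, 92.7, 865 and 263 CPM, with 4, 4, 5 and 4 of the 5 detected (Chad, Col2a1, none and Cnmd at 0). Without these barcodes Lum in the 1 to 3% bin was 29.0, 53.6, 2651 and 159 CPM, and Tnfrsf11b was 47.3, 49.9, 286 and 45.3 CPM. The order of Lum and the place of the WT/ApoE-/- library at the top were as before. The 9 fibroblast markers summed to 1092, 1280, 1189 and 1277 CPM in that bin, with all 9 detected in each library. Gsn alone gave 689, 838, 559 and 571 CPM of this. Pdgfra, at 11.5, 15.1, 39.4 and 15.2 CPM, Serpinf1, at 8.31, 15.8, 27.8 and 9.91 CPM, and Cd34, at 22.5, 38.8, 54.8 and 34.5 CPM, were highest in the WT/ApoE-/- library beyond the intervals. Bin barcodes had fewer than 3 UMIs of Pdgfra and Serpinf1 by definition, so the CPM these genes could reach depended on depth. Depth in this bin was lowest in the WT/ApoE-/- library, at a median of 3780 UMIs, and shallow fibroblasts could stay under the limit. The part of such barcodes and of these markers in the levels of the 7 genes was not tested. The 7 macrophage markers summed to 19.8, 31.4, 147 and 22.0 CPM, with Trem2 at 0 in the WT normal diet library. The part of macrophage RNA in the levels of the genes was not tested.

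Comparing LysM-DKO with WT in the 1 to 3% bin, the genes moved in different directions on the 2 diets. On normal diet 2 of 6 tested genes, Dcn and Ly6a, were higher in LysM-DKO, where 3.99% of all genes were past the threshold. On western diet 4 of 6 tested genes, Lum, Dcn, Tnfrsf11b and Ly6a, were lower in LysM-DKO/ApoE-/-, beside 9% of all genes. The medians of the tested genes were 0.49 and -2.69, beside 0.00 and 0.03 over all genes. These contrasts share no library.

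On western diet the log2 ratio of LysM-DKO/ApoE-/- over WT/ApoE-/- was -3.37 (-3.44 to -3.29) for Lum and -3.11 (-3.18 to -3.04) for Dcn. Ly6a differed most, at -4.10 (-4.52 to -3.72), and Tnfrsf11b by -2.27 (-2.42 to -2.11). Fn1, at -0.78, was lower by less than 2-fold, and Klf4 was at 0.30. On normal diet Dcn was at 1.36 (1.20 to 1.51) and Ly6a at 2.18 (1.64 to 2.77), while Lum was at 0.81 and Tnfrsf11b at 0.05. Barcodes carrying immune or Schwann cell markers made up 12.9% of the WT and 35.1% of the LysM-DKO 1 to 3% bin on normal diet. Such a barcode had a UMI of Ptprc or at least 2 UMIs of T or NK, B, neutrophil or Schwann cell markers. Free RNA can give such UMIs, and Ighm, a B cell marker, was at 779 and 885 CPM in this pair. Its part in these shares was not tested. Without the barcodes carrying these markers and without hemoglobin-rich barcodes Ly6a was 3.54 against 22.0 CPM and Dcn 105 against 314 CPM. Both differences in this pair were thus at least as large. With fibroblast barcodes kept within the bins Dcn was no longer past the threshold in this pair, at 0.72 (0.63 to 0.81). With equal weight for each barcode Ly6a was at 1.33.

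Comparing the western with the normal diet libraries in the 1 to 3% bin of WT mice, 5 of 6 tested genes were higher and 1 lower, beside 14.4% of all genes past the threshold. Lum was at a log2 ratio of 6.55 (6.32 to 6.79), Dcn at 4.66, Ly6a at 4.54, Tnfrsf11b at 2.35 and Fn1 at 1.82. Klf4 was lower, at -1.28 (-1.35 to -1.21). In LysM-DKO mice 2 of 6 were past the threshold, beside 9.99% of all genes. Lum was higher there, at 2.37 (2.16 to 2.60), and Ly6a lower, at -1.73 (-2.22 to -1.27). Dcn and Tnfrsf11b were at 0.19 and 0.03, Fn1 at 0.86 and Klf4 at -0.80. The Lum ratio in LysM-DKO mice was smaller under 3 alternatives and still past the threshold, at 1.52 with equal weight for each barcode, 1.30 without the 5% of barcodes with most UMIs and 1.57 without chondrocyte-marked barcodes. With fibroblast barcodes kept within the bins, Lum and Dcn were at 5.15 and 3.11 in WT mice.

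In the over 6% bin, where the contractile genes were at their highest, fewer of the genes were past the threshold. This bin held only 68, 50, 375 and 258 barcodes, beside 737, 599, 1281 and 824 in the 1 to 3% bin, so fewer genes had enough UMIs. The part of this in the lower counts was not tested. Between LysM-DKO and WT on normal diet 0 of 3 tested genes were past the threshold, beside 3.39% of all genes. On western diet 2 of 5 were lower in LysM-DKO/ApoE-/-, beside 3.07%, with Lum at -3.25 (-4.13 to -2.56) and Tnfrsf11b at -1.33. Between the diets in WT mice 3 of 5 were higher, beside 5.85%, with Lum at 3.30 (2.09 to 5.35), Fn1 at 1.15 and Tnfrsf11b at 1.58. In LysM-DKO mice 1 of 5 was lower, beside 4.23%, which was Lum at -1.54 (-2.77 to -0.15) on 16 and 9 UMIs. Without chondrocyte-marked barcodes this call ended, at -0.75 (-2.17 to 1.15). With equal weight for each barcode the Tnfrsf11b call between the diets in WT mice ended, at 0.94.

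Barcodes differ in depth, and RNA released from broken cells gives UMIs in droplets of every cell type. Each barcode was therefore thinned to 2000 UMIs, and the share with at least 1 UMI of a gene was set beside that in macrophage, lymphocyte and endothelial barcodes of the same library. These classes were not all apart from the bins. A bin barcode with 3 or more UMIs of T, NK and B cell markers would also count as a lymphocyte. Endothelial barcodes needed only more than 1 UMI of Pecam1 and Cdh5, so wall cells of high depth could be among them. Lum was seen in 4.61%, 9.02%, 78.5% and 8.01% of barcodes in the 1 to 3% bin. Macrophages gave 3.41%, 10.0%, 39.8% and 5.69%, lymphocytes 3.30%, 9.45%, 28.4% and 4.76%, and endothelial barcodes 9.42%, 12.3%, 61.7% and 19.3%. Before thinning the shares in the 1 to 3% bin were 9.91%, 17.2%, 84.8% and 13.6%. Only in the WT/ApoE-/- library did the interval of the 1 to 3% bin, 76.2% to 80.8%, lie above those of all 3 other classes. In the remaining libraries the share of barcodes with Lum was within or below the range of these classes, so that this share alone does not set the bin apart from them.

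In the WT/ApoE-/- library the share with Lum dropped to 27.6% in the 3 to 6% bin and 8.80% in the over 6% bin. The first value does not exceed that of lymphocytes and macrophages, and the second lies below both. Of the Lum UMIs in lymphocyte barcodes of that library, 91.0% sat in the tenth of barcodes that held most. The median depths were 3780 UMIs in the 1 to 3% bin, 5964 in the 3 to 6% bin, 4639 in macrophages and 2633 in lymphocytes.

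Dcn was seen in 15.7%, 24.9%, 75.8% and 11.3% of the 1 to 3% bin, beside 18.2%, 19.0%, 39.8% and 8.13% of macrophages. The WT/ApoE-/- library alone exceeded its macrophages beyond the intervals. Dcn is not set beside lymphocyte and endothelial barcodes here, so this does not set the bin apart from those classes. Tnfrsf11b was seen in 7.46%, 8.35%, 38.4% and 9.22% of the bin, beside 1.62%, 1.79%, 5.83% and 2.38% of lymphocytes. The bin was above lymphocytes beyond the intervals in the first 3 libraries, while the lymphocyte interval of the LysM-DKO/ApoE-/- library, on 42 barcodes, reached 12.6%. Endothelial barcodes gave 5.56%, 4.03%, 35.9% and 8.02%, and the bin was above them beyond the intervals only in the LysM-DKO normal diet library. Ly6a was seen in 2.04%, 4.01%, 22.2% and 0.971% of the bin, beside 18.4%, 26.9%, 28.4% and 12.5% of endothelial barcodes, a cell type that expresses it. Fn1 was seen in 68.4%, 71.5%, 94.2% and 80.8% of the bin. It remained frequent in the over 6% bin, at 61.8%, 80.0%, 84.8% and 82.6%, beside 30.7%, 45.7%, 39.0% and 45.2% of lymphocytes. Macrophages and endothelial cells can express Fn1, and the bins are not set beside them here. These shares therefore do not set the bins apart from those classes. Klf4 was seen in 73.3%, 62.3%, 48.7% and 50.6% of the 1 to 3% bin, beside 55.7%, 54.5%, 37.2% and 41.5% of macrophages, which also express it. For Dcn, Tnfrsf11b, Ly6a, Fn1 and Klf4 only the classes named here were compared in the text. The plot of shares by bin and cell class shows the others.

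The genes were also counted together in single barcodes. At least 3 of Lum, Dcn, Fn1, Tnfrsf11b and Ly6a were seen together in 2.04%, 6.01%, 73.7% and 4.98% of thinned barcodes in the 1 to 3% bin, on 15, 36, 944 and 41 barcodes. In the 3 to 6% bin the shares were 1.21%, 0.882%, 20.6% and 0.525%. In the under 1% bin they were 3.59%, 6.56%, 49.4% and 41.1%. In the over 6% bin they were 4%, 4% and 0.775% in the last 3 libraries, on 2, 15 and 2 barcodes, and 0 of 68 barcodes in the first, with an upper bound of 5.28%. The intervals of the western diet libraries lay apart in the 1 to 3% and 3 to 6% bins. They overlapped in the under 1% bin, on 1124 and 248 barcodes, and in the over 6% bin. Immune or Schwann cell markers were found in 79.1%, 81.9%, 48.5% and 25.8% of the under 1% bin, so its shares mix cell types in unequal parts. Shares without such barcodes were not counted, and the overlap there does not show that the western diet libraries were alike.

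**Figure D3:**
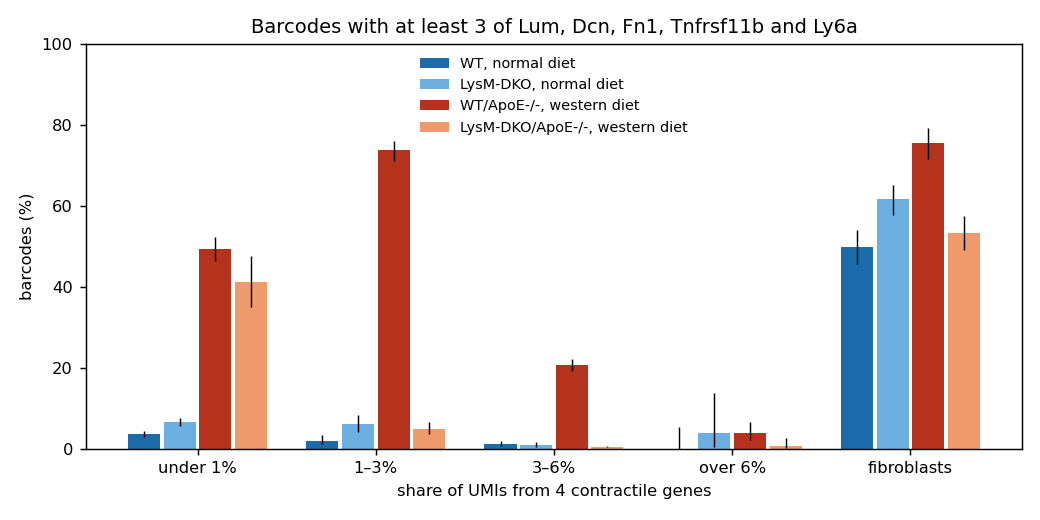
Share of barcodes (percent, after thinning to 2000 UMIs) with at least 3 of Lum, Dcn, Fn1, Tnfrsf11b and Ly6a, by bin of contractile share and in fibroblasts, with exact binomial 95% intervals. The WT/ApoE-/- library reaches 73.7% in the 1 to 3% bin, where the other 3 libraries lie between 2.04% and 6.01%.

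Within the 1 to 3% bin of the WT/ApoE-/- library, barcodes with and without a Lum UMI were compared. Dcn was seen in 89.0% (86.9 to 90.8) of 1006 barcodes with Lum and in 27.6% (22.4 to 33.3) of 275 without. Tnfrsf11b was seen in 43.9% against 18.2%, Ly6a in 27.0% against 4.36% and Fn1 in 97.3% against 82.9%. Klf4 was seen in 49.0% (45.9 to 52.1) against 47.6% (41.6 to 53.7), so its detection differed by less than the counting error. In the other libraries fewer barcodes had Lum, and Dcn was again more frequent among them. In the LysM-DKO/ApoE-/- library Dcn was seen in 65.2% (52.4 to 76.5) of 66 barcodes with Lum and in 6.60% (4.94 to 8.60) of 758 without. In the LysM-DKO normal diet library it was seen in 55.6% (41.4 to 69.1) of 54 and in 21.8% (18.4 to 25.5) of 545. In the WT normal diet library it was seen in 35.3% (19.7 to 53.5) of 34 and in 14.8% (12.3 to 17.6) of 703. Barcodes of a library are not replicates, and these shares describe each library.

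The under 1% bin held few smooth muscle-like barcodes on normal diet. Immune or Schwann cell markers were found in 79.1%, 81.9%, 48.5% and 25.8% of it, and 12.9%, 11.0%, 0.979% and 0.403% were hemoglobin-rich. With these left out, 228, 261, 569 and 183 barcodes remained. Lum then stood at 695, 560, 5740 and 2601 CPM and Fn1 at 984, 1360, 10343 and 6280 CPM, with both western diet libraries above both normal diet libraries as in the whole bin. Klf4 changed its order. In the whole bin it was at 305, 358, 541 and 867 CPM, highest on western diet, and without these barcodes at 1239, 1163, 580 and 929 CPM, highest on normal diet. Without these barcodes Tcf21 in that bin was at 28.6, 9.59, 0.215 and 2.49 CPM, on 28, 11, 1 and 4 UMIs.

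Fibroblasts numbered 572, 677, 505 and 558 barcodes. Their 9 markers, among them Pdgfra and Pi16, summed to 17463, 15269, 4516 and 8839 CPM, all 9 detected in each library. Pdgfra and Serpinf1, which selected these barcodes, are among the 9, so part of the sum follows from the selection. The 5 chondrocyte markers summed to 65.2, 187, 4364 and 1291 CPM in these fibroblasts, also all detected. Col2a1 alone gave 1.06, 5.68, 3597 and 826 CPM of this. Cnmd stood at 4.23, 1.89, 14.8 and 0.314 CPM, lowest in the LysM-DKO/ApoE-/- library. Chad in the WT normal diet library and Cnmd in the LysM-DKO/ApoE-/- library had 1 UMI each. Selected by Pdgfra and Serpinf1, the western diet barcodes therefore had a lower sum of fibroblast markers and a higher sum of cartilage markers. By these sums, which include the selecting genes, the name holds better for the normal diet libraries. Fewer cells of a type and less RNA per cell cannot be told apart in such sums.

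In these fibroblasts Dcn stood at 12328, 9351, 8911 and 9200 CPM and Lum at 1761, 1600, 5110 and 2112 CPM. Dcn was highest in the WT normal diet library, while Lum was highest in the WT/ApoE-/- library. Fn1 stood at 456, 863, 6672 and 4605 CPM and Tnfrsf11b at 43.0, 47.6, 573 and 232 CPM, both higher in both western diet libraries. Without chondrocyte-marked barcodes Fn1 was at 466, 853, 5940 and 3113 CPM and Tnfrsf11b at 42.3, 34.4, 361 and 153 CPM. Ly6a was at 330, 639, 391 and 288 CPM and Klf4 at 1660, 1379, 553 and 862 CPM. The dissociation genes summed to 19878, 17069, 10906 and 15091 CPM in fibroblasts, in the order of Klf4, and their part was not tested. Tcf21, which acts in the development of epicardial and fibroblast lineages, had 61, 35, 11 and 12 UMIs, or 21.5, 9.46, 2.95 and 3.76 CPM. The values on normal diet were near those of the under 1% bin without immune, Schwann and hemoglobin-rich barcodes, 28.6 and 9.59 CPM. Tcf21 was therefore not confined to the barcodes called fibroblasts. That bin can hold fibroblasts with fewer than 3 UMIs of Pdgfra and Serpinf1, and their part in its Tcf21 level was not tested.

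By the same threshold, 1 of 7 genes differed between LysM-DKO and WT fibroblasts on normal diet, beside 3.42% of all genes, and this was Tcf21, lower at -1.18 (-1.83 to -0.56). On western diet 2 of 7 were lower in LysM-DKO/ApoE-/-, beside 6.01%, with Lum at -1.27 and Tnfrsf11b at -1.30. Between the diets in WT fibroblasts 5 of 7 differed, beside 16.5%. Fn1 was higher at 3.87, Tnfrsf11b at 3.73 and Lum at 1.54, and Klf4 was lower at -1.59 and Tcf21 at -2.81. In LysM-DKO fibroblasts 4 of 7 differed, beside 10.7%, with Fn1 higher at 2.42, Tnfrsf11b higher at 2.28, Ly6a lower at -1.15 and Tcf21 lower at -1.29. Both lower calls ended with equal weight for each barcode, at -0.97 and -0.88, and without the 5% of barcodes with most UMIs, at -0.99 and -0.95. Without those barcodes Fn1 was at 1.08 and Tnfrsf11b at 1.31. With fibroblast barcodes defined by 5 UMIs Tcf21 was at -1.13 (-2.68 to 0.12), and the lower Tnfrsf11b of LysM-DKO/ApoE-/- fibroblasts was at -0.93, neither past the threshold.

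Other genes tied to modulation followed the 5 genes in part. Of 18 such genes, 3, 6, 11 and 10 were higher in the 1 to 3% than in the over 6% bin, and 1 was lower in the WT normal diet library, with medians of 0.25, 0.53, 1.85 and 1.13. Beside these and the further lists below, 8.71%, 10.2%, 14% and 7.72% of all genes tested were past the threshold between these bins, in either direction. Vcam1, a leukocyte adhesion molecule, was higher in all 4 libraries, at log2 ratios of 2.85, 2.98, 4.65 and 4.21. Spp1, which encodes osteopontin, was at 5.25 and 4.42 in the western diet libraries. With 2 and 1 UMIs in the over 6% bin on normal diet, it was at 1.27 (-0.34 to 4.66) and 2.15 (0.19 to 8.05), the first not past the threshold. Timp1, an inhibitor of matrix proteases, was at 4.46 and 3.88 on western diet. On normal diet it was at 1.22 (-0.17 to 3.74), not past the threshold, and 2.43 (0.86 to 5.80), on 3 and 2 UMIs in the over 6% bin. Mgp, an inhibitor of calcification, was higher in all 4 libraries, at 1.60, 1.54, 2.32 and 2.14. Vim was at -0.65, -0.79, -0.74 and -0.66 and did not pass the threshold in any.

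Between LysM-DKO/ApoE-/- and WT/ApoE-/- in the 1 to 3% bin, 9 of the 18 were lower and 0 higher, with a median of -1.09. Over all genes tested, 9% were past the threshold in this comparison, in either direction. Spp1 was at -3.26, Timp1 at -2.27, Vcam1 at -2.04, Col8a1 at -2.32 and Col1a1, a chain of type I collagen, at -1.48. Between the diets in WT mice 11 of 18 were higher in that bin and 0 lower, with a median of 1.56, and in LysM-DKO mice 3 were higher, namely Spp1 at 4.28, Lgals3 at 2.06 and Timp1 at 2.01. Over all genes tested, 14.4% in WT and 9.99% in LysM-DKO mice were past the threshold between the diets. Of 15 further contractile genes 0 were higher and 6, 6, 9 and 6 lower in the 1 to 3% than in the over 6% bin. The bins were cut by the share of contractile genes, so this direction was largely set by the division. In the 1 to 3% bin 2 of the 15 were higher in LysM-DKO/ApoE-/- than in WT/ApoE-/-.

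Among 10 other small leucine-rich proteoglycans, 8, 7, 8 and 8 had enough UMIs, and 0, 0, 3 and 3 were higher in the 1 to 3% bin. These 3 were Fmod, Omd and Podn in each western diet library, with Fmod (fibromodulin) at 3.64 and 2.38. Biglycan (Bgn), a close relative of decorin, was at 0.29, 0.17, 0.59 and 0.56 and did not pass the threshold. Kera, which lies beside Lum, had 0 UMIs in the 1 to 3% bin of each library. Of 8 fibronectin receptor genes, 1 was higher in the 1 to 3% bin, Itga4 in the WT/ApoE-/- library at 1.51, and Itga5, a subunit of the classical fibronectin receptor, was between -0.78 and -0.47 in all 4. Of the 8 genes of the Ly6 family near Ly6a, 2, 3, 4 and 2 had enough UMIs, and 2, 2, 4 and 2 were higher in the 1 to 3% bin, with Ly6e at 4.62 (3.52 to 6.39) and Ly6c1 at 5.62 (4.29 to 8.13) in the WT/ApoE-/- library, on 5 and 3 UMIs in the over 6% bin. In the LysM-DKO/ApoE-/- library both had 0 UMIs in the over 6% bin. All 4 that were tested were lower in LysM-DKO/ApoE-/- than in WT/ApoE-/- in the 1 to 3% bin.

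Among 15 other transcription factors of the contractile and modulated states, 4, 5, 4 and 3 were higher in the 1 to 3% bin and 0 were lower. Sox9, a regulator of cartilage genes, was higher in all 4 libraries, at 2.73 in WT, 3.59 in WT/ApoE-/- and 2.64 in LysM-DKO/ApoE-/-, and with 134 against 0 UMIs in LysM-DKO on normal diet. Runx1 was higher in all 4 too, at 1.31, 1.89, 2.51 and 1.21. Klf5 and Klf6, relatives of Klf4, were lower on western diet in WT mice in the 1 to 3% bin, at -1.96 and -1.03, as Klf4 was at -1.28. Srf, the partner of myocardin at CArG boxes, was between -0.55 and 0.81 within the libraries and did not pass the threshold.

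Across the 16 sums of 4 libraries by 4 bins, on log2(CPM + 1), the genes with the most similar pattern among 5950 were named for each of the 7. Lum was most like Timp1, Spp1 and Fuca1, with Pearson correlations of 0.980, 0.972 and 0.971. Dcn was most like Fxyd5 (0.978), Ccnd1 (0.975) and Fbln2 (0.975), and Fn1 was most like Anxa1 (0.990), Fkbp14 (0.976) and Arfgap3 (0.973). Tnfrsf11b was most like Frzb (0.973), Lamp2 (0.970) and Sdc1 (0.968). Ly6a was most like Marcks (0.944), Fbln2 (0.943) and Gda (0.942), so Fbln2 appeared for both Dcn and Ly6a. Klf4 was most like Klf10 (0.957), Tubb2a (0.938) and Sgms2 (0.936), and Tcf21, on few UMIs, was most like Arntl at 0.869. Among the 7, Dcn and Lum reached 0.942, Dcn and Ly6a 0.940 and Lum and Tnfrsf11b 0.923, while Klf4 and Lum reached 0.220. The 4 sums of a library share its preparation and depth, so these values describe the pattern and carry no p-value.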

How the data were processed

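Single-cell RNA of mouse aorta was measured in 4 libraries, 1 per group. The deposited files hold raw UMI counts per gene and barcode as whole numbers, and the deposited lists of genes and barcodes give their order. Per the file headers, the authors counted the western diet libraries with Cell Ranger 6.1.2 and the normal diet libraries with 6.0.1. The submitters' processing notes name Cell Ranger 6.1.2, Seurat 4.1.0 and mm10 with no role. Gene positions come from GENCODE M21 on GRCm38, where 99.6% of 32285 gene identifiers matched.

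Barcodes were filtered and binned as the report says, and counts were summed per library and bin in Python 3.11.15 with numpy 2.4.6, scipy 1.17.1 and pandas 2.3.3. Shares on a bin edge of 1% or 3% went to the higher bin. Levels carry exact Poisson intervals and shares exact (Clopper-Pearson) intervals, both at 95%. Log2 ratios had 0.5 UMI added to each sum and exact binomial intervals given the total. PCR duplicates are removed by UMIs, and all intervals cover counting error only. Macrophage and lymphocyte barcodes had 3 or more UMIs of the C1q genes or of T, NK and B cell markers, and endothelial barcodes exceeded the limit on Pecam1 and Cdh5. Lymphocyte barcodes were not removed from the bins or from the fibroblasts. Doublets were not called. Thinning used 1 fixed seed. The text names the 7 genes, genes of fixed lists, and the 3 genes most like each of the 7 among genes with at least 500 UMIs and a mean of 20 CPM over the 16 sums, leaving out the bin, mitochondrial and ribosomal protein genes. The members, lists and rules were chosen with earlier results of these data known. On simulated counts for the comparison of the 1 to 3% with the over 6% bin in the WT/ApoE-/- library, on 11940 genes, 98.0% of 198 genes changed 4-fold were called in the right direction and 0.749% of unchanged genes were called. The simulated counts varied by Poisson counting error only. These rates therefore leave out differences between barcodes, cell mixtures and animals, and are not error rates of the real comparisons. Alternatives were other limits on UMIs, mitochondrial share, fold and fibroblast markers, equal weight per barcode, and leaving out barcodes of high depth, immune, cartilage or hemoglobin markers.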

Additional observations from a re-analysis of the deposited data

Results flagged for a closer look

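In 6 cases a gene moved in opposite directions under the same contrast, with each value past the 2-fold threshold. The difference between the contrasts was not tested, since each group has 1 library. Between the genotypes in the 1 to 3% bin, the log2 ratio for Dcn was 1.36 on normal diet and -3.11 on western diet, with WT as the base. The first value was 0.72, no longer past the threshold, with fibroblast barcodes kept within the bins. For Ly6a these ratios were 2.18 and -4.10. Between the diets, with normal diet as the base, Ly6a had a log2 ratio of 4.54 among WT and -1.73 among LysM-DKO mice in that bin. In the 3 to 6% bin the ratios between the diets were 2.81 and -1.35 for Dcn, and 3.04 and -1.84 for Ly6a. In the over 6% bin they were 3.30 and -1.54 for Lum, where the LysM-DKO value rests on 16 and 9 UMIs. Without chondrocyte-marked barcodes that value was -0.75 (-2.17 to 1.15), which does not pass the threshold. No alternative was run for the ratios in the 3 to 6% bin.

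Barcodes of 500 to under 2000 UMIs, which no comparison above used, also carried the genes. Those with a contractile share of 1 to 3% numbered 1744, 2384, 9197 and 607 in the 4 libraries. In the WT/ApoE-/- library they gave 2353 CPM of Lum, 2723 CPM of Dcn, 3156 CPM of Fn1, 287 CPM of Tnfrsf11b and 176 CPM of Ly6a. The WT normal diet library gave 91.6, 464, 835, 26.3 and 40.6 CPM of these genes. In the LysM-DKO/ApoE-/- library such barcodes gave 2130 CPM of Fn1, 62.5 CPM of Tnfrsf11b and 780 CPM of Klf4, beside 1083, 26.3 and 635 CPM in the LysM-DKO normal diet library. In the same pair Lum was at 134 against 139 CPM, Dcn at 241 against 689 CPM and Ly6a at 18.5 against 70.0 CPM. Klf4 was thus higher on western diet in these barcodes of LysM-DKO mice and lower in those kept, at 478 against 834 CPM. In WT mice it was at 329 CPM on western and 729 CPM on normal diet.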

How the results depend on the processing

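No paired analysis was possible because each group has 1 library. Of the counts of genes past the threshold, none turned in direction under the alternatives run, and 17 moved by more than 1.5 times, each by 1 or 2 genes. The cause was not tested. With fibroblast barcodes kept within the bins and 5 UMIs required of a fibroblast, LysM-DKO over WT on normal diet had 1 gene higher in the over 6% bin instead of 0 and 1 higher in the 1 to 3% bin instead of 2. Under that setting 1 gene instead of 2 was lower in fibroblasts, both for LysM-DKO/ApoE-/- over WT/ApoE-/- and for western over normal diet in LysM-DKO. With equal weight for each barcode, 1 gene instead of 0 was higher for LysM-DKO over WT in the over 6% bin on normal diet, and 0 instead of 2 were lower for western over normal diet in LysM-DKO fibroblasts. Without the 5% of barcodes with most UMIs, 3 genes instead of 5 were higher in the 1 to 3% bin of the LysM-DKO normal diet library. In fibroblasts 1 instead of 0 was then higher for LysM-DKO over WT on normal diet and 0 instead of 2 lower for western over normal diet in LysM-DKO. With a threshold of 1.5-fold the over 6% bin had 1 gene instead of 0 higher for LysM-DKO over WT on normal diet, 1 instead of 0 lower between diets in WT and 2 instead of 1 lower between diets in LysM-DKO. The 1 to 3% bin then had 2 instead of 1 higher and 2 instead of 1 lower between diets in LysM-DKO, and fibroblasts had 2 instead of 0 higher on normal diet and 1 instead of 0 higher on western diet for LysM-DKO over WT. Without chondrocyte-marked barcodes, an alternative chosen after seeing the data, 0 genes instead of 1 were lower between diets in the over 6% bin of LysM-DKO. Over these alternatives the log2 ratio of LysM-DKO/ApoE-/- over WT/ApoE-/- in the 1 to 3% bin ran from -4.40 to -3.10 for Lum, from -3.73 to -2.63 for Dcn and from -5.02 to -3.62 for Ly6a. Depth limits Ly6a in the over 6% bin and Tcf21 in the bins from 1% upwards.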
